A study of Mus musculus with 8 samples.

Results

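Erythroid and megakaryocyte transcription factors were measured as a set of 10 genes: Gata1, Gata2, Gfi1b, Klf1, Tal1, Zfpm1, Lyl1, Ldb1, Nfe2 and Cbfa2t3. They were chosen by name for their known roles, with earlier results of these data known. All 10 were among the 34199 genes in the count files and all 10 were among the 13080 genes with enough counts to be tested. The cells were immortalised granulocyte-macrophage progenitors (iGMPs) of C57Bl/6 mice, which are bone marrow cells committed to neutrophils and macrophages. They self-renewed because they carried HOXA9 fused to a mutant estrogen receptor hormone-binding domain, active only with estradiol. All 4 groups shared this fusion, stem cell factor in the medium and a GFP reporter under lysozyme control.

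The groups held 2 libraries each. The t0 group was sampled at 0 h while 150 ng/ml estradiol was present. Cells of the CAF-1 OFF group stayed in estradiol and were given 500 µM IPTG for 48 h, which switched on a short hairpin RNA against Chaf1b, a subunit of the histone chaperone CAF-1. IPTG control cells were also cultured with IPTG for 48 h, but the labels give neither their vector nor their dose. HOXA9 OFF cells were washed free of estradiol and grown without it for 48 h, which starts neutrophil differentiation in these cells. The study worked with clonal lines, and its supplement speaks of independent sub-clones for RNA-seq of these cells, but the labels tie no library to a sub-clone or culture. All p-values measure the spread between these libraries, whatever its source.

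Blood progenitors choose between lineages through small sets of transcription factors that act together on the same enhancers. In erythroid and megakaryocyte precursors, the zinc finger factor GATA1 and the basic helix-loop-helix factor TAL1 sit on DNA in one complex held together by the adaptor LDB1, while FOG1 (the product of Zfpm1) bridges GATA1 to chromatin regulators. GATA2 occupies the same kind of site in stem and progenitor cells and in mast cells, and is replaced by GATA1 as erythroid cells mature. ETO2 (the product of Cbfa2t3) and GFI1B bring repressors to many of these sites, KLF1 drives globin and other red cell genes, and NFE2 drives late megakaryocyte and globin genes. Several of these factors are also made, at lower or varying levels, in early myeloid progenitors, mast cells and basophils.

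The members of this set did not all move in the same direction. Gfi1b was the member with the largest change on CAF-1 loss, from 0.756 and 0.385 CPM in t0 cells to 18.0 and 35.2 CPM after the knockdown, where CPM is the count scaled to a common library total. Tal1 and Zfpm1 gave no call on CAF-1 loss and fell 3.97-fold and 4.79-fold when HOXA9 was switched off. Gfi1b also rose on HOXA9 inactivation, to 5.31 and 3.17 CPM. Gata1 rose there too, and Nfe2 rose by less. Leaving out 1 library moved these log2 fold changes from 1.52 to 3.04 for Gata1 and from 0.48 to 0.90 for Nfe2. Klf1 was at or below 1.53 CPM in all 8 libraries. In bulk RNA such as this, fewer cells making a factor and less RNA per cell cannot be told apart.

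The label checks went as follows. Chaf1b read 96.7 and 100.2 CPM in t0, 95.04 and 101.6 CPM in IPTG control, 18.7 and 9.72 CPM after CAF-1 loss and 48.3 and 41.0 CPM after HOXA9 inactivation, so the knockdown libraries were the lowest (6.94-fold below t0, log2 fold change -2.79 ± 0.27, edgeR adjusted p = 0.00236). Estradiol controls the HOXA9 fusion as a protein, and the Hoxa9 count (234.3 and 234.6 CPM in t0, 480.9 and 449.5 CPM in HOXA9 OFF) does not check that label. None of the 9 granulocyte-macrophage progenitor markers, such as Mpo and Elane, was at 0 in any library, and their summed level was 10846 to 14841 CPM in t0 cells. Total gene counts were 14044284 to 22423837 per library, so 3 counts, taken as the floor, stood for 0.128 to 0.212 CPM. Reads outside genes were 14.6% in IPTG control replicate 1 and 5.30% to 7.79% in the other 7 libraries, and comparisons with IPTG control cells were repeated without that library.

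The promoters of 5 members called against t0 cells are shown, with the windows that hold a motif match, so that the upstream sequences can be read beside the levels. Each is the 250 bases before a RefSeq transcription start in GRCm38.p6, a later build than the mm9 used for counting, written 5′ to 3′ on the gene's own strand in lower case. Capitals mark matches to 4 short motifs searched on both strands: GATA sites (AGATAA or AGATAG or TGATAA or TGATAG), ETS sites (AGGAAG or CGGAAG), E-boxes (CAGATG or CAGCTG) and CACCC boxes of the KLF type (CCACACCC or CCCCACCC). A match on the other strand appears as its reverse complement.
Gfi1b (chr2:28621983-28622232, minus strand): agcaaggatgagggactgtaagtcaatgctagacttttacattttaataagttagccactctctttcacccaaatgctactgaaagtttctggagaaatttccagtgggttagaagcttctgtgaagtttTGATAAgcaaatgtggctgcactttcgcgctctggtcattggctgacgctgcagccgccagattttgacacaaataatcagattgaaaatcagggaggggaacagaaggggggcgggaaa
Gata1 (chrX:7967911-7968160, minus strand): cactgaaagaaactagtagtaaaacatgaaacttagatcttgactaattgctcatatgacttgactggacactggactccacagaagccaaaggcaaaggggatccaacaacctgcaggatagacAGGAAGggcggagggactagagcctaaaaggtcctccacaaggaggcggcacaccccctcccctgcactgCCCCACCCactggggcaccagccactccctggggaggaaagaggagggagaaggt
Cbfa2t3 (chr8:122699110-122699359, minus strand): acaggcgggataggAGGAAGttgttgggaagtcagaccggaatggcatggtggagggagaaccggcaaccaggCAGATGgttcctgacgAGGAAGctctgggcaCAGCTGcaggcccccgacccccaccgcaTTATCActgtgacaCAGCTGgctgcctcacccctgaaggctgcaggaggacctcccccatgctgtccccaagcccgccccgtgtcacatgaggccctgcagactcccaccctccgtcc
Tal1 (chr4:115056176-115056425, plus strand): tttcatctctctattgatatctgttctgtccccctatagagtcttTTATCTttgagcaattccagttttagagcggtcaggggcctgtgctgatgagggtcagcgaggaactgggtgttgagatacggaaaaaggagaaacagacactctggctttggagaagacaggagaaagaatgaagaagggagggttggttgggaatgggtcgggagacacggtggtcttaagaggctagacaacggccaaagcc
Zfpm1 (chr8:122281891-122282140, plus strand): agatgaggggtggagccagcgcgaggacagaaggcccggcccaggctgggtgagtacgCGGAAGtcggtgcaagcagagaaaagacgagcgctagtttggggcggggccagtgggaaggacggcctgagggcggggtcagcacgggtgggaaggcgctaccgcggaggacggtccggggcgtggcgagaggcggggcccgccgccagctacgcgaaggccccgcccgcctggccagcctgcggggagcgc

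The Gfi1b window held a single match, TGATAA, 120 to 115 bases before the start. The Gata1 window held AGGAAG 125 to 120 bases and CCCCACCC 55 to 48 bases before the start, and none of the 4 GATA hexamers searched. The Cbfa2t3 window had a GATA match on the other strand at 118 to 113 bases together with ETS and E-box matches. The printed Tal1 window had a GATA match on the other strand 205 to 200 bases before its start, and Zfpm1 had CGGAAG 192 to 187 bases before its start. A second window of Tal1, a second of Cbfa2t3 and both windows of Gata2, which was called between CAF-1 OFF and HOXA9 OFF cells, held no match and are not printed. Windows were found for 9 of the 10 members, 14 windows in all, with none for Nfe2. A GATA hexamer was in 5 of the 14, compared with 26.5% of 32851 promoter windows of the same length, an ETS match in 6 (39.2% of all), an E-box in 2 (25.5%) and a CACCC box in 2 (11.8%). These counts describe letters and say nothing of factors bound there.

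**Figure D1:**
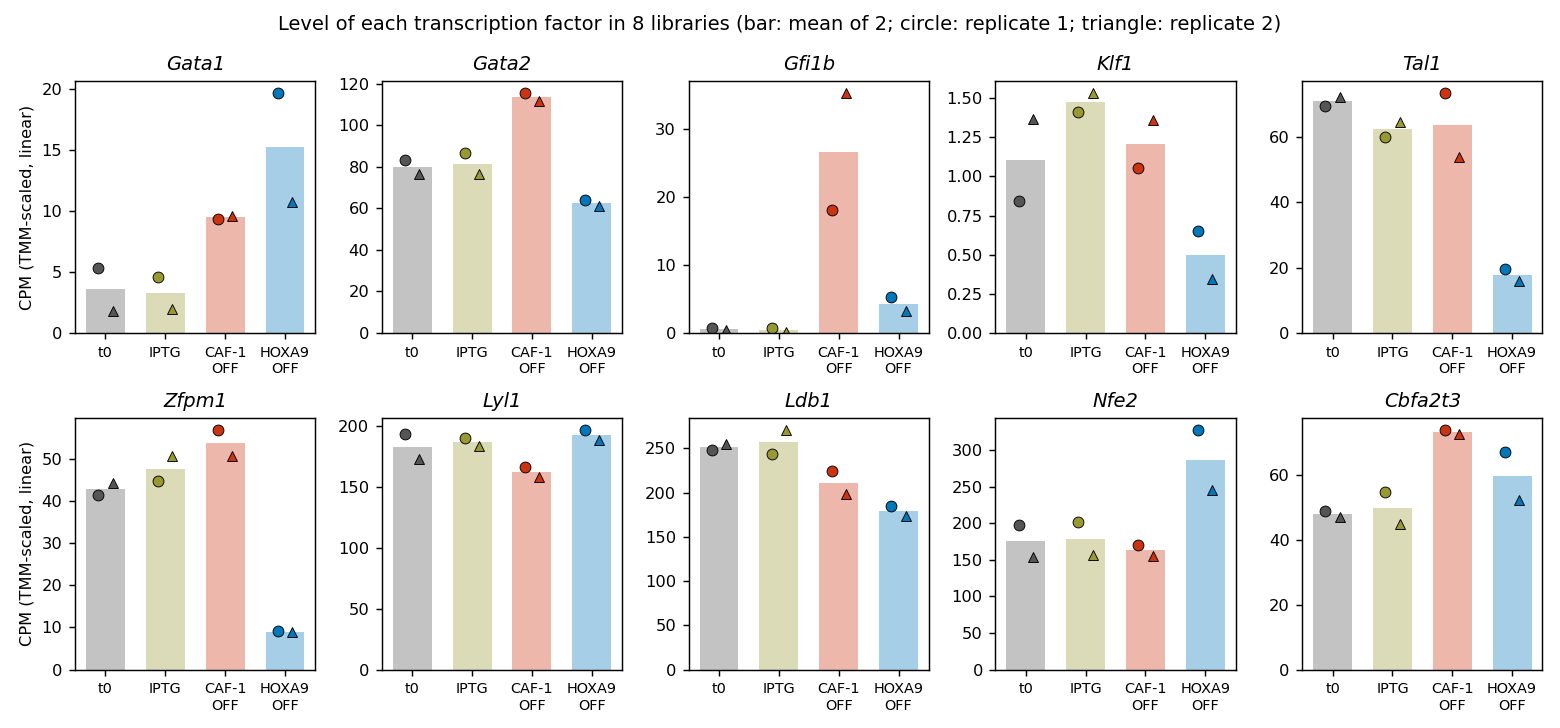
Level of each of the 10 transcription factors in the 8 libraries, in CPM on a linear axis from 0, with 1 panel per gene, bars for the mean of 2 libraries, circles for replicate 1 and triangles for replicate 2. Gfi1b was near 0 in t0 and IPTG control cells and reached 18.0 and 35.2 CPM in CAF-1 OFF cells, while the HOXA9 OFF bars of Tal1 and Zfpm1 were the lowest of their panels.

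The GATA factors were described first. Gata1 (X:7536386-7555197 in mm9, minus strand) encodes the factor that erythroid cells, megakaryocytes, mast cells and eosinophils need. It read 5.29 and 1.84 CPM in t0, 4.59 and 1.96 CPM in IPTG control, 9.31 and 9.61 CPM after CAF-1 loss and 19.6 and 10.8 CPM after HOXA9 inactivation. Both CAF-1 OFF libraries were above all 4 control libraries and both HOXA9 OFF libraries were above both CAF-1 OFF libraries. In HOXA9 OFF against t0 cells its log2 fold change was 2.09 ± 0.57 (SE, n = 2 against 2), 4.26-fold, with an adjusted p of 0.0145 in edgeR's quasi-likelihood test. That call was lost without t0 replicate 2 (log2 fold change 1.52, edgeR adjusted p = 0.0714) and without HOXA9 OFF replicate 1 (1.59, edgeR adjusted p = 0.0593), while without t0 replicate 1 the value was 3.04 (edgeR adjusted p = 0.01005). The call was kept with the replicate number as a block (2.16, edgeR adjusted p = 0.00176) and in DESeq2 (2.10, DESeq2 adjusted p = 0.000383). The log2 fold change on CAF-1 loss against t0 was 1.41 ± 0.56 with an edgeR adjusted p of 0.113, and against IPTG control cells it was 1.54 with an edgeR adjusted p of 0.100. Leaving out 1 library moved the first from 0.83 (without t0 replicate 2) to 2.35 (without t0 replicate 1) and the second from 1.04 (without IPTG control replicate 2) to 2.24 (without IPTG control replicate 1), with no call in either. With the replicate number as a block, both of these passed (1.60 and 1.69, edgeR adjusted p = 0.0224 in each), as they did in DESeq2 (1.40 and 1.54, DESeq2 adjusted p = 0.0490 and 0.0331).

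Gata2 (6:88143885-88157024, plus strand) was the more abundant GATA factor in every library. It read 83.1 and 76.3 CPM in t0, 86.6 and 76.3 CPM in IPTG control, 115.4 and 111.5 CPM after CAF-1 loss and 64.2 and 60.9 CPM after HOXA9 inactivation. No CAF-1 OFF or HOXA9 OFF library overlapped the controls, with CAF-1 OFF above and HOXA9 OFF below them. The log2 fold change of 0.51 ± 0.10 in CAF-1 OFF against t0 cells (edgeR adjusted p = 0.0174) was under the 1.5-fold asked of a call, as was that of -0.35 ± 0.11 in HOXA9 OFF against t0 cells (edgeR adjusted p = 0.0222). The direct comparison passed, with Gata2 1.82-fold higher in CAF-1 OFF than in HOXA9 OFF libraries (log2 fold change 0.86 ± 0.11, edgeR adjusted p = 0.000423).

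Taken per kilobase of exon, Gata1 stood at 8.76% and 3.31% of Gata2 in t0 cells and at 7.28% and 3.53% in IPTG control cells. It was 11.1% and 11.8% of Gata2 after CAF-1 loss and 42.1% and 24.3% after HOXA9 inactivation. Gata1 thus stayed below Gata2 in all 8 libraries, and the groups other than the controls did not overlap each other or the controls.

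**Figure D2:**
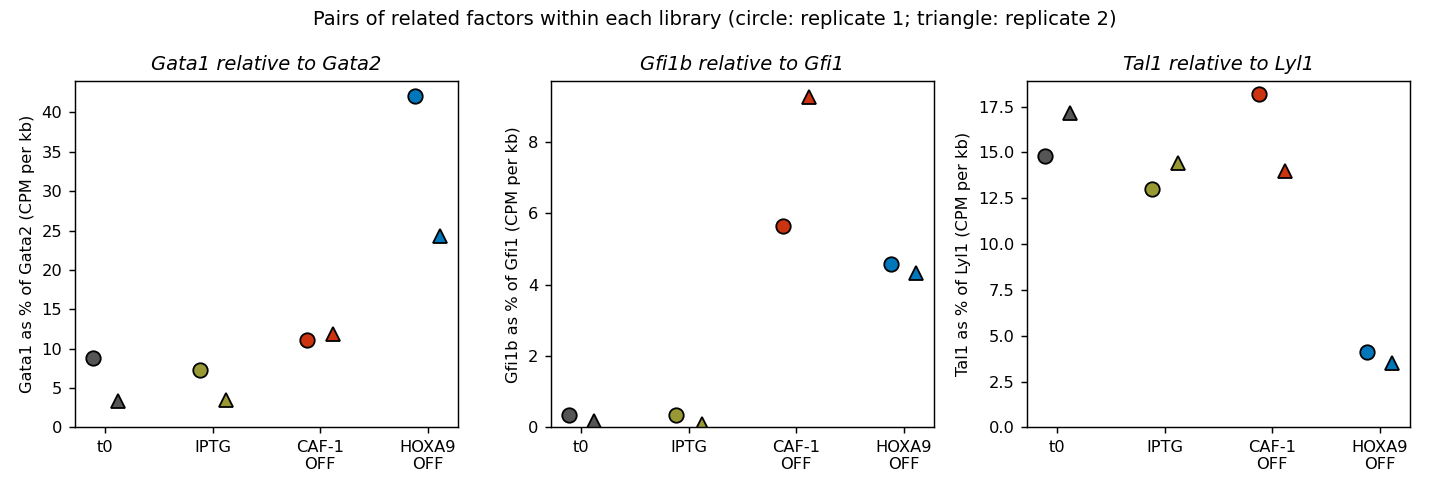
Ratio of 3 pairs of related factors within each library, as a percentage of CPM per kilobase of exon on linear axes from 0, with circles for replicate 1 and triangles for replicate 2. Gata1 relative to Gata2 was highest in HOXA9 OFF cells (42.1% and 24.3%), Gfi1b relative to Gfi1 was highest in CAF-1 OFF cells (5.63% and 9.25%), and Tal1 relative to Lyl1 was lowest in HOXA9 OFF cells (4.11% and 3.50%).

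The GFI1B repressor showed the largest changes. Gfi1b (2:28464970-28477502, minus strand) encodes a zinc finger repressor that erythroid cells and megakaryocytes need and that recruits LSD1 and CoREST. Its raw counts were 17 and 9 in t0, 10 and 3 in IPTG control, 343 and 674 in CAF-1 OFF and 98 and 64 in HOXA9 OFF libraries. As levels these were 0.756 and 0.385 CPM, 0.706 and 0.184 CPM, 18.0 and 35.2 CPM, and 5.31 and 3.17 CPM. The CAF-1 OFF libraries were the highest, the HOXA9 OFF libraries came next, and neither overlapped the controls, whose lowest library was at the floor of 3 counts. The log2 fold change in CAF-1 OFF against t0 cells was 5.53 ± 0.61 (46.3-fold, edgeR adjusted p = 0.00324), and against IPTG control cells it was 5.92 ± 0.65 (edgeR adjusted p = 0.00362). In HOXA9 OFF against t0 cells it was 2.88 ± 0.59 (7.38-fold, edgeR adjusted p = 0.0039), and CAF-1 OFF was 6.28-fold above HOXA9 OFF (2.65 ± 0.51, edgeR adjusted p = 0.00356). Leaving out any 1 of the 4 libraries compared kept Gfi1b called in each of these 4 comparisons, with a log2 fold change of 4.97 (without CAF-1 OFF replicate 2) to 6.08 (without t0 replicate 1) in CAF-1 OFF against t0 cells. Against IPTG control cells the range was 5.22 (without IPTG control replicate 2) to 7.11 (without IPTG control replicate 1, which leaves the library at the floor).

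Gfi1, the paralog of Gfi1b that works in granulocyte precursors, was the far more abundant of the pair. Per kilobase of exon, Gfi1b was 0.346% and 0.187% of Gfi1 in t0 cells, 0.338% and 0.0855% in IPTG control cells, 5.63% and 9.25% after CAF-1 loss and 4.57% and 4.34% after HOXA9 inactivation. Both changed groups were thus above the controls on this ratio, with different levels of the denominator. Gfi1 itself read 387.6 and 365.2 CPM in t0, 568.9 and 676.1 CPM after CAF-1 loss and 206.4 and 129.9 CPM after HOXA9 inactivation. Gfi1 is annotated as a processed transcript in the mm9 gene set and its exons overlap another gene, so its length and count are less certain.

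The 5 genes whose log2 CPM followed Gfi1b most closely over the 8 libraries were Cdkn3, Ikzf2, Kcnh7, Mmp8 and Serpinb2, with Pearson's r from 0.98 to 0.99. All 8 points share the same libraries and group structure, so the r values are a description. Mmp8, a neutrophil collagenase, went from 58.3 and 43.4 CPM in t0 to 1090 and 1936 CPM after CAF-1 loss and 556.1 and 376.0 CPM after HOXA9 inactivation. Ikzf2, which encodes the transcription factor Helios, went from 18.4 and 15.1 CPM to 101.1 and 105.9 CPM and to 54.9 and 39.2 CPM in the same groups.

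Of the TAL1 complex and its partners other than the GATA factors, Tal1 and Zfpm1 were called lower without HOXA9 activity, and Lyl1, Ldb1 and Cbfa2t3 were not called there. Tal1 (4:114729031-114744360, plus strand) encodes the DNA-binding helix-loop-helix factor of the complex. It read 69.6 and 72.1 CPM in t0, 60.1 and 64.6 CPM in IPTG control, 73.4 and 53.8 CPM after CAF-1 loss and 19.7 and 16.1 CPM after HOXA9 inactivation. The CAF-1 OFF libraries spanned both control groups, and both HOXA9 OFF libraries were below the other 6. The fall in HOXA9 OFF against t0 cells was 3.97-fold (log2 fold change -1.99 ± 0.18, edgeR adjusted p = 6.6e-05). On CAF-1 loss its log2 fold change against t0 was -0.16 with a 95% interval of -0.54 to 0.23 (edgeR adjusted p = 0.535).

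Lyl1 (8:87225356-87228614, plus strand), the close relative of Tal1 used in stem and progenitor cells, read 193.5 and 172.7 CPM in t0, 189.9 and 183.9 CPM in IPTG control, 166.2 and 158.3 CPM after CAF-1 loss and 197.1 and 188.3 CPM after HOXA9 inactivation. Its HOXA9 OFF libraries overlapped the t0 libraries, and its CAF-1 OFF libraries were the lowest by a small margin. It was not called in any comparison, with a log2 fold change of 0.07 in HOXA9 OFF against t0 cells (95% interval -0.15 to 0.29, edgeR adjusted p = 0.531). That value turned to -0.12 when libraries were scaled by their totals alone, which moved the median of all tested genes to -0.18 in this comparison. Per kilobase of exon, Tal1 was 14.8% and 17.2% of Lyl1 in t0 cells, 13.0% and 14.4% in IPTG control cells, 18.2% and 14.0% after CAF-1 loss and 4.11% and 3.50% after HOXA9 inactivation. The ratio was thus lowest in the HOXA9 OFF libraries and in the CAF-1 OFF libraries it overlapped both control groups. Exons of Lyl1 overlap those of Nfix on the other strand, and whether counting used the strand is not given in the sources used here.

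Ldb1 (19:46107083-46119704, minus strand), the adaptor that joins TAL1 and GATA complexes between enhancers and promoters, read 248.6 and 255.0 CPM in t0, 243.3 and 271.1 CPM in IPTG control, 224.5 and 198.2 CPM after CAF-1 loss and 184.5 and 173.5 CPM after HOXA9 inactivation. Both changed groups were below every control library. The difference of -0.49 ± 0.11 on the log2 scale in HOXA9 OFF against t0 cells (edgeR adjusted p = 0.00502) was under 1.5-fold and was not called, but it was called with scaling by library totals alone (-0.68, edgeR adjusted p = 0.00122). Ldb1 exons overlap Pprc1 on the other strand.

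Zfpm1 (8:124806039-124861146, plus strand) encodes FOG1, the partner through which GATA1 reaches the NuRD complex. It read 41.4 and 44.3 CPM in t0, 44.7 and 50.6 CPM in IPTG control, 56.8 and 50.6 CPM after CAF-1 loss and 9.06 and 8.82 CPM after HOXA9 inactivation. The HOXA9 OFF libraries were far below the other 6. The fall in HOXA9 OFF against t0 cells was 4.79-fold (log2 fold change -2.26 ± 0.13, edgeR adjusted p = 1.67e-05), and Zfpm1 was 6.01-fold higher in CAF-1 OFF than in HOXA9 OFF libraries (2.59 ± 0.13, edgeR adjusted p = 2.22e-05). On CAF-1 loss against t0 cells its value was 0.33 with a 95% interval of 0.05 to 0.61 (edgeR adjusted p = 0.0919). Within HOXA9 OFF libraries the level of Zfpm1 per kilobase was 33.2% and 59.0% of that of Gata1, whereas it was above Gata1 in the other 6 libraries.

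Cbfa2t3 (8:125152639-125223009, minus strand) encodes ETO2, a corepressor that holds back TAL1 and GATA1 targets in progenitors. It read 48.8 and 46.9 CPM in t0, 54.9 and 44.8 CPM in IPTG control, 73.9 and 72.6 CPM after CAF-1 loss and 66.9 and 52.3 CPM after HOXA9 inactivation. The CAF-1 OFF libraries were the highest and did not overlap any other group. The rise in CAF-1 OFF against t0 cells was 1.53-fold (log2 fold change 0.61 ± 0.15, edgeR adjusted p = 0.0282), close to the limit of a call, and it was lost on leaving out any of the 4 libraries compared (edgeR adjusted p = 0.113 to 0.147). Against IPTG control cells the difference was 1.47-fold (0.56 ± 0.15, edgeR adjusted p = 0.0419), just under the fold asked for. Its exons overlap Gm10612 on the other strand.

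Klf1 (8:87425827-87429194, plus strand), the erythroid Krüppel-like factor, was barely detected. It read 0.845 and 1.37 CPM in t0, 1.41 and 1.53 CPM in IPTG control, 1.05 and 1.36 CPM after CAF-1 loss and 0.651 and 0.347 CPM after HOXA9 inactivation. The HOXA9 OFF libraries were the lowest, and the CAF-1 OFF libraries lay between the t0 libraries. No comparison gave a call, with a log2 fold change of -1.15 ± 0.49 in HOXA9 OFF against t0 cells (edgeR adjusted p = 0.0763) and 0.12 with a 95% interval of -0.93 to 1.17 in CAF-1 OFF against t0 cells (edgeR adjusted p = 0.873). Scaling by library totals alone would call the first (-1.34, edgeR adjusted p = 0.0449). A rise of 1 on the log2 scale on CAF-1 loss lay within that interval.

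Nfe2 (15:103078643-103088834, minus strand) encodes the large subunit of the NF-E2 dimer, which acts with small MAF proteins. It read 197.7 and 153.9 CPM in t0, 201.5 and 156.6 CPM in IPTG control, 170.5 and 155.1 CPM after CAF-1 loss and 327.5 and 245.9 CPM after HOXA9 inactivation. Both HOXA9 OFF libraries were above the other 6. The rise in HOXA9 OFF against t0 cells was 1.63-fold (log2 fold change 0.71 ± 0.19, edgeR adjusted p = 0.0143), and it was lost without t0 replicate 2 (0.53, edgeR adjusted p = 0.0983), without HOXA9 OFF replicate 1 (0.48, edgeR adjusted p = 0.0687) or with scaling by library totals alone (0.52, under 1.5-fold). Nfe2 was also 1.76-fold lower in CAF-1 OFF than in HOXA9 OFF libraries (-0.82 ± 0.19, edgeR adjusted p = 0.00838), a call lost without CAF-1 OFF replicate 2 (-0.75, edgeR adjusted p = 0.0598) and with scaling by library totals alone (-0.58).

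**Figure D3:**
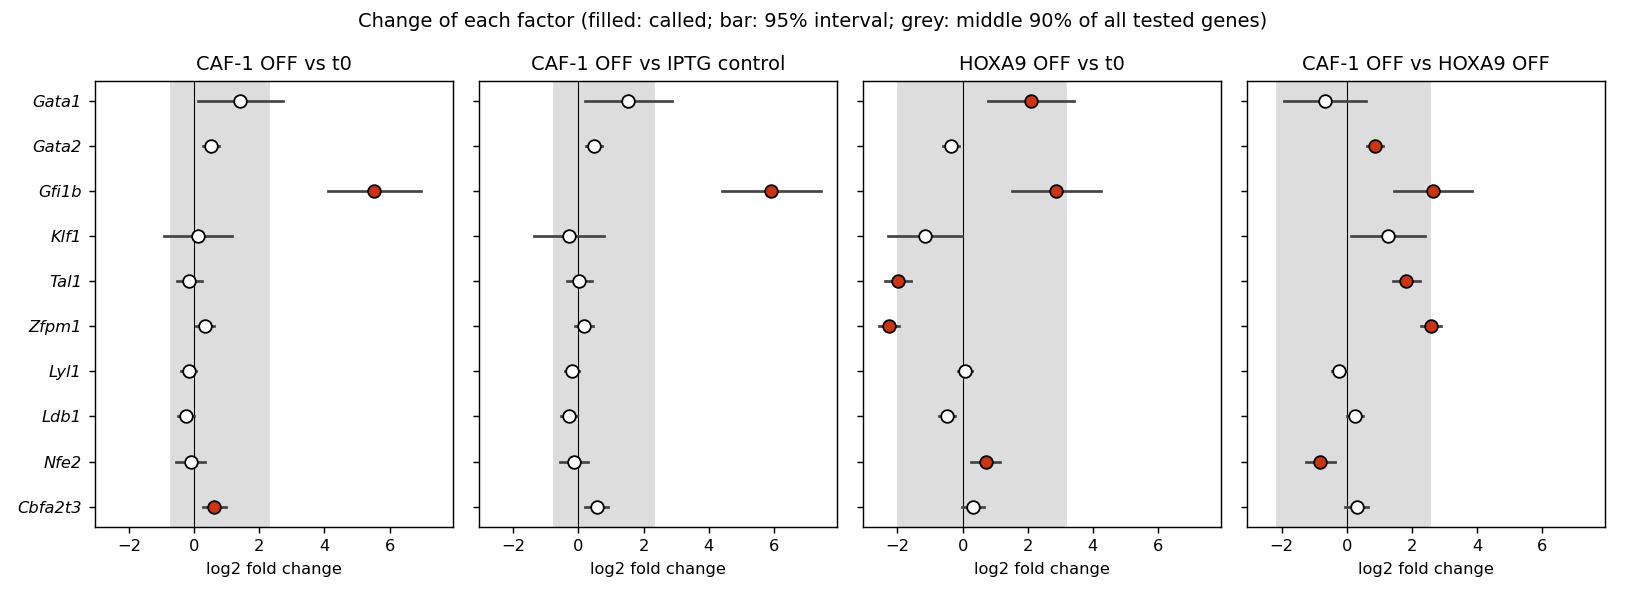
Log2 fold change of each factor (horizontal axis) in 4 comparisons, with points filled where the change was called, bars for the 95% interval and grey bands for the middle 90% of all tested genes. Gfi1b was outside the band in each comparison with CAF-1 OFF cells, and Zfpm1 was outside it in both comparisons with HOXA9 OFF cells (-2.26 and 2.59).

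Counted over the set, CAF-1 OFF against t0 cells gave 2 of the 10 members higher (Gfi1b and Cbfa2t3) and 0 lower, where 14% of all tested genes were called, 10.5% higher and 3.5% lower. A call needed an adjusted p under 0.05 in edgeR and at least 1.5-fold. At an unadjusted p under 0.05, 5 members were higher and 1 was lower, and DESeq2 called 3 higher and 0 lower. Against IPTG control cells, 1 member was called higher (Gfi1b) and 0 lower, beside 12.8% of all tested genes, 9.56% higher and 3.2% lower. There the unadjusted counts were 4 higher and 1 lower, and DESeq2 called 2 higher and 0 lower. The libraries of both groups did not overlap for 7 members against t0 cells and 8 against IPTG control cells, beside 68.3% and 68.9% of all tested genes. The shares of members called or separated on CAF-1 loss were thus near the background.

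In HOXA9 OFF against t0 cells, 3 members were called higher (Gata1, Gfi1b, Nfe2) and 2 lower (Tal1, Zfpm1), beside 47.2% of all tested genes, 25.2% higher and 22.1% lower. With scaling by library totals alone the split became 2 higher and 4 lower, as Nfe2 left and Klf1 and Ldb1 joined. In CAF-1 OFF against HOXA9 OFF cells, 4 members were higher (Gata2, Gfi1b, Tal1, Zfpm1) and 1 lower (Nfe2), beside 43.5% of all tested genes, 22.2% higher and 21.4% lower, and with scaling by library totals alone 5 were higher and 0 lower. Libraries did not overlap for 9 members in the first of these comparisons and for 10 in the second, beside 78.1% and 78.2% of all tested genes. Both comparisons use the same HOXA9 OFF libraries, so the values of Tal1 and Zfpm1 in them are not independent of each other. Each also shares its t0 or CAF-1 OFF libraries with the CAF-1 OFF against t0 comparison.

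IPTG control cells, which also differ from t0 cells by 48 h of culture, gave 0 calls among the 10 members against t0 cells in edgeR, 0 at an unadjusted p under 0.05 and 0 in DESeq2, with log2 fold changes from -0.39 for Gfi1b to 0.41 for Klf1. For 3 members the libraries of these groups did not overlap, beside 18.3% of all tested genes. Over all tested genes edgeR called 0%, 100 genes had an unadjusted p under 0.05 and DESeq2 called 5 genes. The median log2 fold change of the members was 0.22 in CAF-1 OFF against t0, 0.10 in CAF-1 OFF against IPTG control, -0.14 in HOXA9 OFF against t0 and 0.58 in CAF-1 OFF against HOXA9 OFF cells, where the medians of all tested genes were 0.01, 0.01, 0.01 and 0.04. With scaling by library totals alone the members' medians in the comparisons with HOXA9 OFF cells were -0.33 and 0.81, beside -0.18 and 0.27 over all tested genes.

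The order of the members by level was compared per kilobase of exon. In t0 cells Lyl1 was highest at 101.7 CPM per kb, followed by Ldb1 (70.3), Nfe2 (58.8), Gata2 (23.8), Tal1 (16.2), Zfpm1 (12.6) and Cbfa2t3 (10.0). Gata1 (1.46), Klf1 (0.721) and Gfi1b (0.312) made up a low tier in which the libraries of Gata1 and Klf1 overlapped. IPTG control cells gave the same order of means, with Tal1 and Zfpm1 also overlapping.

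In CAF-1 OFF cells Gfi1b left the low tier and stood at 14.6 CPM per kb, beside Zfpm1 (15.9), Cbfa2t3 (15.3) and Tal1 (14.5), each overlapping its neighbour in the order. Gata1 stayed below them at 3.88 and Klf1 was last at 0.786. In HOXA9 OFF cells Lyl1 (107.1) and Nfe2 (95.9) overlapped at the top, Gata1 (6.23) overlapped Tal1 (4.08), and Zfpm1 (2.64) overlapped Gfi1b (2.32). Using the longest transcript in place of all exons put 6 members at another rank in CAF-1 OFF cells and 2 in each other group, so close neighbours should not be read as ordered. The top rank also changed on that length, from Lyl1 to Ldb1 in t0, IPTG control and CAF-1 OFF cells and from Lyl1 to Nfe2 in HOXA9 OFF cells.

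**Figure D4:**
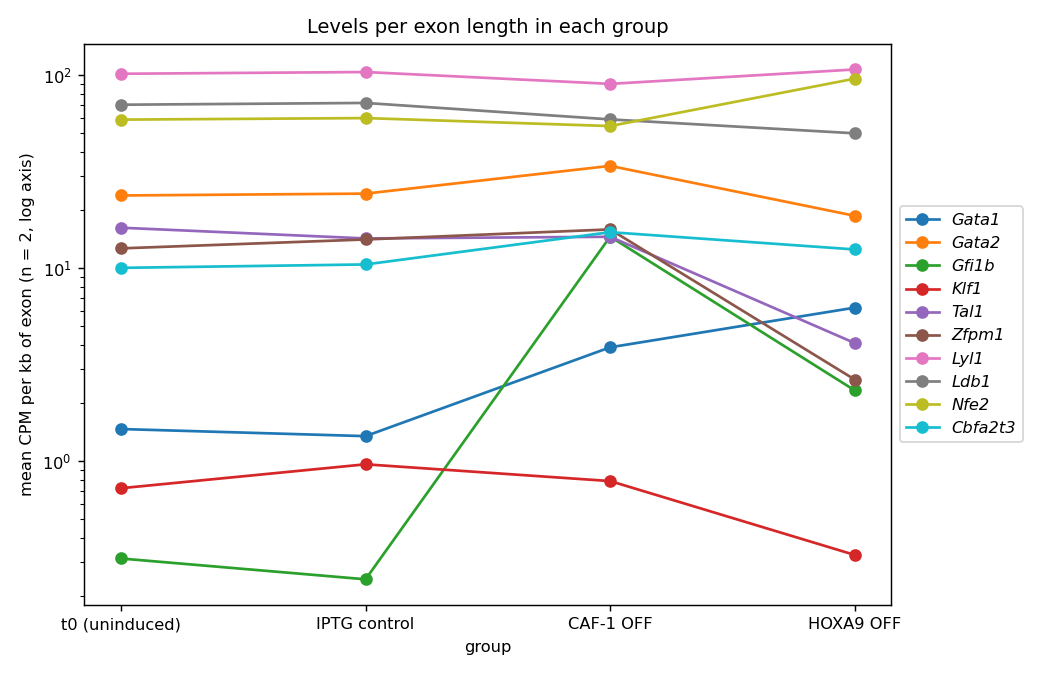
Mean level of each factor per kilobase of exon in each group (n = 2), on a log axis, with lines joining the same gene across groups that have no order in time. Gfi1b moved from 0.312 in t0 cells to 14.6 CPM per kb in CAF-1 OFF cells, and Zfpm1 and Tal1 dropped to 2.64 and 4.08 CPM per kb in HOXA9 OFF cells.

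Other genes of the same pathways were taken from lists chosen with earlier results of these data known. Each list is to be read beside the shares of all tested genes. These were 14% called in CAF-1 OFF against t0 cells (10.5% higher, 3.5% lower). In HOXA9 OFF against t0 cells they were 47.2% (25.2% higher, 22.1% lower). Of 17 cofactors of the TAL1, GATA1, GFI1B and ETO2 complexes, 16 were tested. CAF-1 loss against t0 gave, near the share of all tested genes, 2 calls upwards and 0 downwards. These were Tcf4 (32.8 to 60.6 CPM on average), an E protein that pairs with TAL1, and Ssbp2 (25.3 to 45.2 CPM), which stabilises LDB1. In HOXA9 OFF against t0 cells 1 was higher and 4 were lower, among them Tcf4 (32.8 to 13.2 CPM), the histone deacetylase gene Hdac2 (206.9 to 95.03 CPM) and the E protein gene Tcf3 (182.0 to 94.9 CPM). The list's median log2 fold change was -0.02 in the first comparison and -0.26 in the second. With scaling by library totals alone these were 0.02, with 1 called higher, and -0.46, with 0 higher and 4 lower.

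Of 7 partners and relatives of NFE2, 6 were tested, with 1 called higher in CAF-1 OFF against t0 cells and 3 in HOXA9 OFF against t0 cells, and 0 lower in either. Bach1, a heme-sensitive repressor that competes for the same sites, rose in both (109.8 CPM in t0, 187.1 in CAF-1 OFF, 213.9 in HOXA9 OFF), and Mafg, a small MAF partner, rose on HOXA9 inactivation (94.9 to 204.5 CPM). With scaling by library totals alone 2 partners, in place of 3, were called in HOXA9 OFF cells. Of 9 ETS, RUNX and related partners in megakaryocytes, 8 were tested. Erg (67.4 to 145.2 CPM) and Runx1 (37.6 to 65.9 CPM) rose and Meis1 (45.5 to 24.4 CPM) fell in CAF-1 OFF cells, while Runx1 (to 123.0 CPM) and Fli1 (70.7 to 140.3 CPM) rose and Meis1 (to 8.89 CPM) fell in HOXA9 OFF cells.

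Of 10 family relatives of the members, 7 were tested. CAF-1 loss against t0 gave 3 higher (Klf6, Gfi1 and Klf13) and 0 lower. HOXA9 inactivation gave 6 higher and 1 lower, so that each of the 7 was called, beside 47.2% of all tested genes. Klf2 (0.696 to 53.3 CPM), Klf4 (0.949 to 24.6 CPM) and Tal2 (0.284 to 3.64 CPM) led the rises on HOXA9 inactivation, and Gfi1 was the relative that fell. Of 9 myeloid lineage factors, all tested, 1 was higher in CAF-1 OFF cells (Cebpe, a granulocyte factor, 98.2 to 349.96 CPM) and 8 were higher in HOXA9 OFF cells, led by Cebpd (15.0 to 125.0 CPM) and Irf5 (10.5 to 78.7 CPM). Where a list had 0 calls in a direction, DESeq2 also gave 0, and at an unadjusted p under 0.05 there were 4 lower cofactors in CAF-1 OFF cells, 1 lower myeloid factor in HOXA9 OFF cells and 0 in the others.

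**Figure D5:**
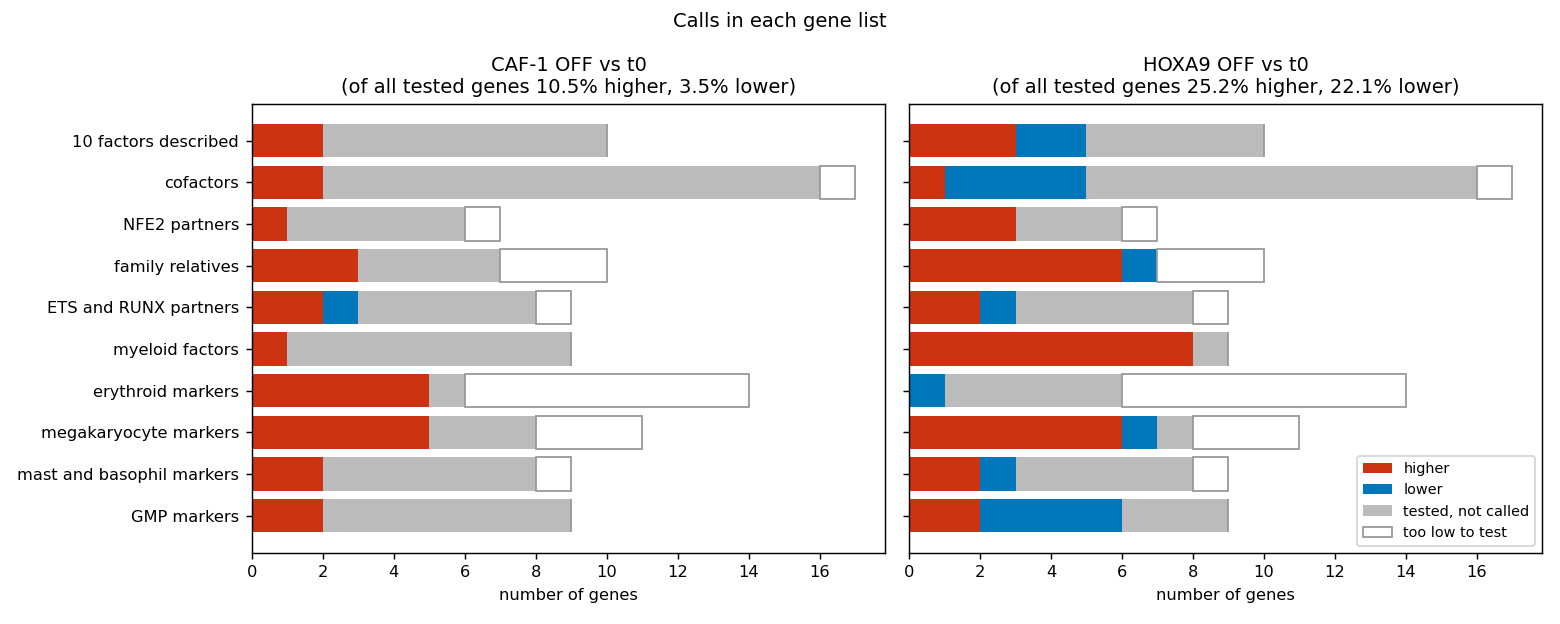
Number of genes called higher, called lower, tested but not called, and too low to test in each gene list, for CAF-1 OFF against t0 (left) and HOXA9 OFF against t0 (right). Of the 10 factors, 2 were higher in CAF-1 OFF cells, and 3 were higher and 2 lower in HOXA9 OFF cells.

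Markers of the cells in which these factors work were read beside them. For every marker list the shares of all tested genes called against t0 were again 14% on CAF-1 loss and 47.2% on HOXA9 inactivation. Of 14 erythroid markers, 6 were at 3 counts or fewer in all 8 libraries, among them the globin genes Hba-a1, Hba-a2 and Hbb-b1 and the anion exchanger gene Slc4a1. Of the 6 that were tested, 3 (Spna1 and Hbb-b2 among them) passed the filter only through CAF-1 OFF libraries, so the count of 5 called higher in CAF-1 OFF cells partly followed from the filter. DESeq2 called 2 erythroid markers higher there, and edgeR called 4 higher against IPTG control cells. Their counts were small: Hbb-b2, a beta globin gene, had 3 and 6 in t0 and 34 and 22 in CAF-1 OFF libraries. The summed erythroid level, 67.3 to 83.6 CPM in t0, 115.6 to 134.5 CPM after CAF-1 loss and 5.86 to 10.4 CPM after HOXA9 inactivation, came mostly from Car2, a carbonic anhydrase gene that read 65.1 and 79.6 CPM, 126.2 and 104.0 CPM, and 2.28 and 2.83 CPM in these groups. Car2 was also the 1 erythroid marker called in HOXA9 OFF against t0 cells, where it fell, and 0 rose.

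Of 11 megakaryocyte and platelet markers, 8 were tested. Against t0, 5 rises and 0 falls were called on CAF-1 loss, beside 14% of all tested genes. HOXA9 inactivation against t0 gave 6 rises and 1 fall, beside 47.2% of all tested genes. Pf4, the platelet factor 4 gene, read 2.67 and 3.04 CPM in t0, 55.7 and 124.3 CPM after CAF-1 loss and 1.25 and 20.8 CPM after HOXA9 inactivation. Itga2b, the integrin chain also made by mast cells and early progenitors, read 14.9 and 17.5 CPM, 109.0 and 74.5 CPM, and 114.2 and 93.2 CPM. Vwf, the von Willebrand factor gene, was called in HOXA9 OFF cells on libraries at 0.651 and 53.6 CPM, and Ppbp, a platelet chemokine gene, on libraries at 0.976 and 15.2 CPM, so HOXA9 OFF replicate 2 carried most of both rises. Gp1bb, Gp6 and Treml1 were at 3 counts or fewer in all 8 libraries.

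The summed level of 9 mast cell and basophil markers, which need GATA1 and GATA2 as well, was 189.4 to 267.5 CPM in t0, 179.1 to 259.6 CPM in IPTG control, 749.2 to 1132 CPM after CAF-1 loss and 381.1 to 389.1 CPM after HOXA9 inactivation. Of the 8 tested, 2 rose and 0 fell on CAF-1 loss against t0, Mcpt8 (34.3 and 29.5 CPM to 267.0 and 227.6 CPM) and Cpa3 (154.4 and 114.8 CPM to 764.0 and 422.8 CPM). In HOXA9 OFF against t0 cells 2 were higher (Mitf and Hdc) and 1 was lower (Mcpt8). The summed rise on CAF-1 loss came mostly from Cpa3 and Mcpt8. Means of Cma1 (3.39 to 2.86 CPM) and Tpsb2 (0.444 to 0.289 CPM) were lower there, and those of the other tested markers were higher. Between the CAF-1 OFF libraries the sum was higher in replicate 1 (1132 against 749.2 CPM), while Gfi1b was higher in replicate 2 (18.0 and 35.2 CPM in replicates 1 and 2). The part of these markers in the rise of Gfi1b was not tested. Of the 9 progenitor markers 2 rose on CAF-1 loss (Csf1r and Elane) and 0 fell, and 2 rose and 4 fell on HOXA9 inactivation. The largest change there was the rise of Csf1r, from 4.40 to 658.9 CPM on average. The 9 markers summed to 16262 to 16312 CPM after CAF-1 loss and 6829 to 8708 CPM after HOXA9 inactivation. Flt3 (297.2 to 5.85 CPM) and Cd34 (1790.3 to 246.4 CPM) fell in the same HOXA9 OFF libraries as Tal1 and Zfpm1. The part of these markers in the falls of Tal1 and Zfpm1 was not tested.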

How the data were processed

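Bulk RNA was sequenced from 8 mouse iGMP libraries with a directional NEBNext kit. Per the study's methods and the submitters' processing notes, the authors aligned reads to mm9 with STAR and counted them per gene with HTSeq. Each deposited file gives the raw counts of 1 library by gene symbol, neither normalised nor pooled. The annotation version, the strand setting of the counting and the read length are not given in the sources used here. The 5 HTSeq summary lines in each file were kept out of library sizes and tests. Of the reads, 5.30% to 14.6% per library fell outside genes.

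Members and gene lists were chosen with earlier results of these data known. The named genes are the 10 members, at most 3 called genes per list with the largest change in CAF-1 OFF against t0 and in HOXA9 OFF against t0, Chaf1b, Hoxa9 and the 5 genes that correlate best with the called member of largest change. Markers at 3 counts or fewer in all libraries, Mpo and Elane as examples of their list, and the ratios of related genes were named after their values were seen. Some genes that meet this rule are not reported here. Spna1 is the file's symbol for the alpha-spectrin gene.

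Tests used edgeR 4.0.16 under R 4.3.3, with filterByExpr, TMM scaling (factors 0.895 to 1.06), 1 quasi-likelihood fit over all 8 libraries with a mean per group, and Benjamini-Hochberg adjustment over 13080 genes. The biological coefficient of variation was 18.9%. A call needed an adjusted p under 0.05 and 1.5-fold, which are the thresholds of the study. CPM used TMM-scaled totals, and log2 CPM a prior count of 2. Totals of 14044284 to 22423837 counts set a floor of 3 counts, which covers counting error only. Libraries of a group differed by more than sampling noise (chi-square per degree of freedom 16.6 to 78.2). On simulated CAF-1 OFF and t0 counts with 200 of 12779 genes changed, 96% of log2 changes of 2 and 57% of changes of 1 were recovered, with 8 unchanged genes called.

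Alternatives were DESeq2 size factors, totals alone, no filter, DESeq2 1.42.0, fits restricted to the groups compared, a block on replicate number, other thresholds and leaving out each library. Gene spans and exon lengths are from GENCODE vM1 on mm9, counted from 1. Every window of 50 bases in the longest transcript of each member was unique among transcripts of other genes. Promoter sequences are from RefSeq on GRCm38.p6.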

Additional observations from a re-analysis of the deposited data

How the results depend on the processing

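In CAF-1 OFF against t0 cells the 2 member calls became 1 on leaving out any 1 of the 4 libraries compared (lowest 1, highest 1, Gfi1b alone) and 1 at an adjusted p under 0.01 with 2-fold. Against IPTG control cells the 1 call became 2 with library totals alone (adding Cbfa2t3, 0.60), 2 in DESeq2 and 2 in a fit of only those groups (adding Gata1), and 3 with no fold threshold (adding Gata2 and Cbfa2t3), and it stayed 1 on leaving out any of the 4 libraries compared. In HOXA9 OFF against t0 cells the 5 calls ranged from 3 to 5 on leaving out a compared library, and were 3 at the stricter threshold and 7 with no fold threshold (adding Gata2 and Ldb1). In CAF-1 OFF against HOXA9 OFF cells the 5 calls ranged from 4 to 5, and were 3 at the stricter threshold and 5 with no fold threshold. Upwards, the calls in CAF-1 OFF against t0 cells became 3 with no fold threshold (adding Gata2) and 3 in DESeq2 (adding Gata1). The cause of these changes in the counts was not tested, other than the stricter rule's own construction.

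The replicate number as a block gave 2 calls in CAF-1 OFF against IPTG control and 3 in CAF-1 OFF against t0 (adding Gata1 in each), and changed no other call of a member. Deviations of same-numbered libraries correlated at 0.48 (t0 and IPTG control), 0.30 (t0 and HOXA9 OFF) and 0.32 (IPTG control and HOXA9 OFF), but at -0.04, -0.02 and 0.08 for pairs with CAF-1 OFF, so on this measure the numbers were not taken to pair the samples. Single genes can differ by number in every group. Cma1 and Ank1 were picked after their values were seen. Cma1 was at 3.31 to 5.93 CPM in the libraries numbered 1 and 1.35 to 2.40 CPM in those numbered 2. Ank1 went the other way, at 0.222 to 0.922 CPM in those numbered 1 and 1.78 to 5.65 CPM in those numbered 2. The main fit counts such differences as spread.

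Of 500 alternative values of member log2 fold changes, 460 kept direction and side of the threshold, 9 gained a call, 11 lost it and 20 changed sign. The sign changes were in values not called: Lyl1 in HOXA9 OFF against t0 with library totals alone (-0.12), and on leaving out a library the ranges below. In CAF-1 OFF against t0 these were -0.19 to 0.50 for Klf1, -0.42 to 0.051 for Tal1 and -0.28 to 0.077 for Nfe2. In CAF-1 OFF against IPTG control they were -0.24 to 0.24 for Tal1 and -0.31 to 0.032 for Nfe2, and in HOXA9 OFF against t0 -0.0087 to 0.15 for Lyl1. In IPTG control against t0 they were -0.86 to 0.82 for Gata1, -0.065 to 0.12 for Gata2, -1.60 to 0.31 for Gfi1b, -0.0501 to 0.11 for Lyl1, -0.050 to 0.10 for Ldb1, -0.17 to 0.22 for Nfe2 and -0.10 to 0.20 for Cbfa2t3. Klf1, and Gfi1b and Gata1 in controls, had few counts at this sequencing depth. Libraries were left out only in the comparisons of their own group. A library left out leaves its group with 1 sample, assumed to vary like the others.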
